A study of Mus musculus with 24 samples.

Results

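The genes described here are 47 macrophage genes that were well expressed before lipopolysaccharide (LPS) and whose transcript level in control cells was at least 4-fold lower 4 h after LPS. They were chosen from the measured values. With 1 probe per gene symbol (the probe with the highest mean over the 24 arrays), the mean of the 3 control arrays at 0 h had to be at least 7.5 log2 units, and the mean at 4 h had to lie at least 2 log2 units below it. Of 16593 genes with a symbol, 5063 reached that level at 0 h and 55 met both conditions. 8 of the 55 (Cxcr4, Gpr146, Zfp36l1, Lpar6, Cnr2, Klf4, Sesn1 and Tsc22d3) were left out by name or gene family, which left the 47. The cells were macrophages from the bone marrow of female C57BL/6 mice aged 6 weeks. They carried no inhibitor (control) or an inhibitor of the BET bromodomains, and were sampled without LPS (0 h) and at 1, 2 and 4 h of LPS, giving 8 groups of 3 arrays that the study's design calls biological replicates. The compound, both doses and any time of pre-treatment are unknown here. The study asked how such an inhibitor alters the response of macrophage genes to LPS.

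LPS, a component of the outer membrane of Gram-negative bacteria, is sensed by Toll-like receptor 4 and switches a macrophage from housekeeping and clearance to defence. Alongside the cytokine genes that it induces, many transcripts of the resting cell decline, among them genes for cholesterol and iron export, for vesicle traffic and for transcription factors of the resting state. A transcript declines when its gene is transcribed less, when its RNA is degraded faster, or both, and a measurement of RNA level does not separate these. BET proteins bind acetylated histones through their bromodomains and help RNA polymerase II into productive elongation, so that inhibitors of them are known mainly for blocking gene induction.

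All values are levels in log2 units as the authors deposited them, so that a difference of 1 is a 2-fold difference. A change is the mean of 3 arrays minus the mean of 3 others, ± its standard error, and a change was called when limma's p, adjusted over all 8201 features tested, was under 0.05. The control arrays of 0 h and 4 h chose the genes, so every difference that contains either group is given below as a description and has no test. Tests are given for the inhibitor-treated arrays among themselves, for inhibitor against control at 1 h and 2 h, and for the step from 1 h to 2 h. Arrays of the same replicate number deviated together, so the inhibitor-treated arrays are other arrays of the same numbered replicates, not a second experiment. The number of arrays, 3 a group, limits the precision.

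Of the 9 listed macrophage marker genes, 7 were matched on the array, and all 7 (Adgre1, Itgam, Cd14, Lyz2, Fcgr1, Mertk and Spi1) lay above the floor of 6.455 on all 24 arrays. The floor is the 99th percentile of olfactory and vomeronasal receptor probes. All 5 matched T cell markers, all 3 matched NK cell markers, 3 of 4 matched B cell markers and 4 of 5 dendritic cell markers lay below it on every array. Among 6 neutrophil markers S100a8 lay above the floor on all arrays, Elane and Mpo on some, and S100a9, Camp and Ltf on none. Among 5 fibroblast markers Dcn lay above the floor on all arrays, Col1a1, Col1a2 and Pdgfra on some, and Col3a1 on none. Over the 8 groups the means ran from 9.71 to 10.23 for S100a8 and from 9.23 to 9.46 for Dcn. Those of Mpo ran from 6.75 (control, 1 h) to 7.35 (control, 4 h). The mean over the neutrophil list ran from 6.69 to 7.07 between arrays and that over the fibroblast list from 6.66 to 7.08. Replicate 1 deviated more from its group means (root mean square deviation over features 0.20 to 0.25) than replicate 2 (0.12 to 0.17) or 3 (0.14 to 0.19). In RNA from a whole culture, fewer cells that express a gene and less RNA per cell cannot be told apart.

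Before LPS the 47 genes had control means from 8.22 to 12.52, with a median of 10.07. At 4 h of LPS without inhibitor their means ran from 6.15 to 9.98, with a median of 7.71, and 6 genes (Fam214a, Fosb, Galnt9, Sh2d1b1, E2f2 and Eepd1) lay below the floor on all 3 arrays. Counting these, 12 genes had at least 1 array of that group below the floor. All 47 passed the filter on dim probes, since all their arrays of 0 h and 1 h lay above the floor. The median 4 h minus 0 h difference in control cells was -2.33, or -2.23 with the 6 genes below the floor put at the floor, against -0.14 over all features. Of all features tested, 0.732% had a difference of -2 or less. These values follow from how the genes were chosen. The genes nearest the threshold inside it were Arhgef4 (-2.05), Tec (-2.06) and Eepd1 (-2.07). Just outside it lay Il16 (-1.998), Casp9 (-1.997) and Bhlhe40 (-1.97). No gene was kept out by the level threshold, since the dimmest members at 0 h, Eepd1 and E2f2, stood at 8.22 and 8.32.

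**Figure D1:**
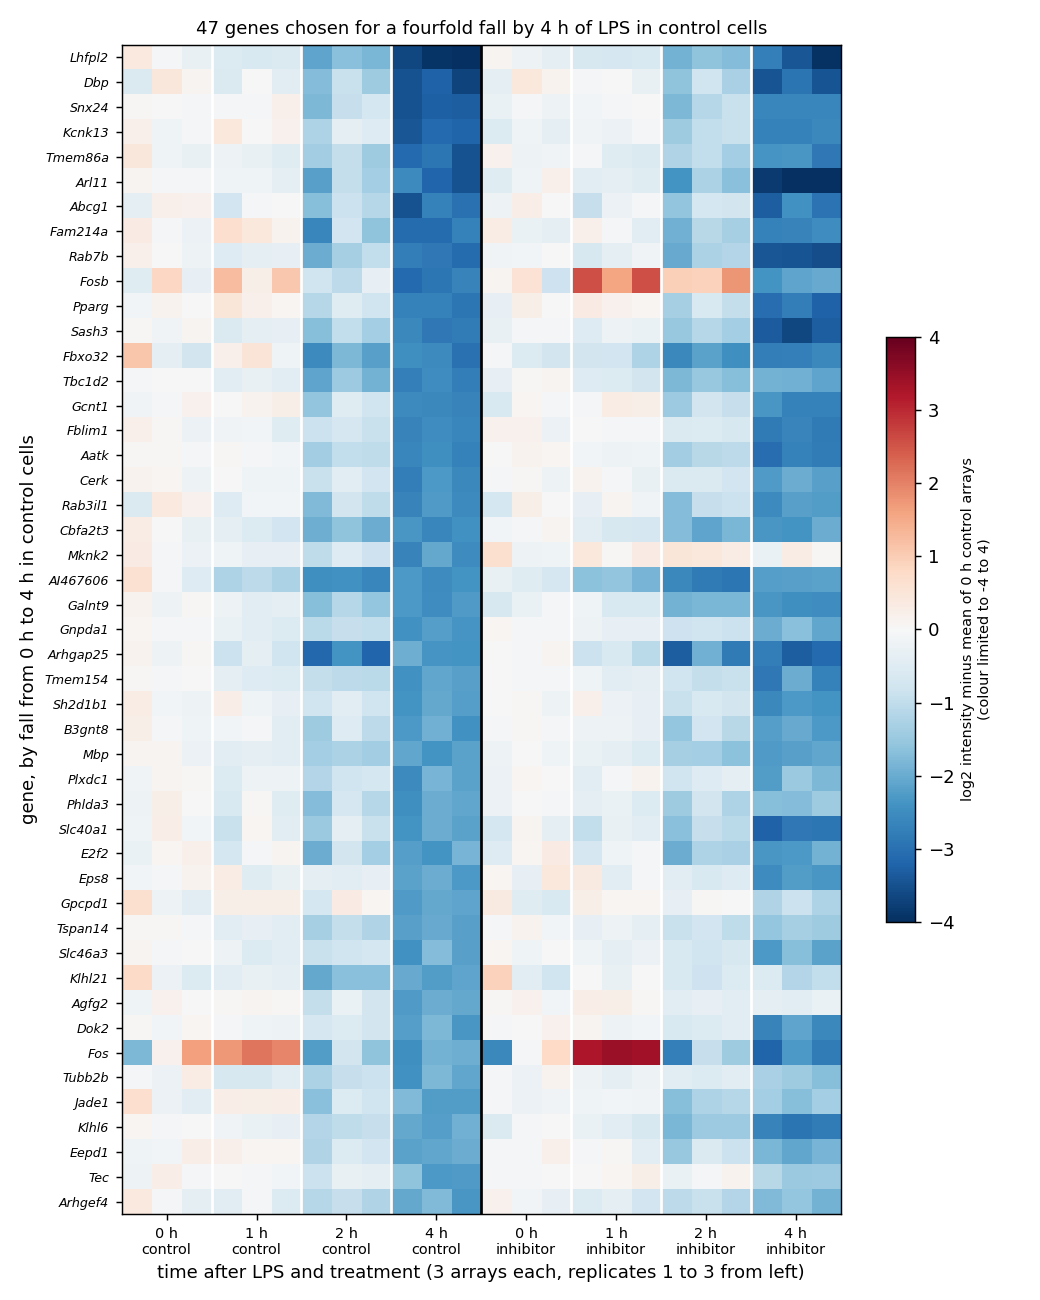
Level of each of the 47 genes (rows) on each of the 24 arrays (columns, in 8 groups of 3), as the difference from that gene's mean over the 3 control arrays at 0 h, in log2 units. Columns of 4 h are low in control and inhibitor-treated cells alike except in a few rows, of which Mknk2 and Agfg2 are the clearest, and columns of 1 h are near those of 0 h in most rows.

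The largest differences in control cells belonged to genes of varied function, whose levels on each array are as follows. Lhfpl2, a member of a family of tetraspan membrane proteins, stood at 12.84, 12.36 and 12.14 in control replicates 1, 2 and 3 at 0 h and at 8.82, 8.53 and 8.35 at 4 h, a difference of -3.88 (14.7-fold). Dbp, a circadian transcription factor of the PAR bZIP family, stood at 9.41, 10.45 and 10.08 and then at 6.51, 6.74 and 6.28 (-3.48). Snx24, a sorting nexin, stood at 11.25, 11.18 and 11.14 and then at 7.72, 7.93 and 7.89 (-3.35). In all 3 genes the 2 groups were separated by more than 2 log2 units on every array. Those groups chose the genes and these 3 differences are the largest, so the separation follows largely from the choice. Kcnk13, a background potassium channel known from microglia, had means of 9.62 ± 0.20 (SD, n = 3) and 6.38 ± 0.15. Its 4 h arrays of 6.21 and 6.42 lay below the floor, so its difference may be understated. Tmem86a, an enzyme that cleaves lysoplasmalogens, had 11.32 ± 0.39 and 8.16 ± 0.30. Fam214a, a gene of poorly known function, had 9.11 ± 0.30 at 0 h and lay below the floor on all 3 arrays at 4 h, at least 6.32-fold lower.

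The genes reached their low level mostly between 1 h and 4 h. In control cells 45 of the 47 were lowest at 4 h and 2, Arhgap25 and AI467606, at 2 h. By 2 h the median gene had covered 45% of its 4 h difference, and only 4 genes had covered more than 80%. These control values contain the arrays of 0 h and 4 h that chose the genes, so they follow in part from the choice. In inhibitor-treated cells, whose arrays did not choose the genes, 45 were likewise lowest at 4 h and 2 at 2 h. The step from 1 h to 2 h in control cells, which used arrays that did not choose the genes, was called lower for 39 of the 47 and higher for none, against 7.01% lower and 6.17% higher of all features. The median step was -0.93, against -0.04 over all features. Under inhibitor the same step was called lower for 35 (6% of all features) and higher for 0 (4.65%), with a median of -0.94. A difference of this step between treatments was called for 0 of the 47 genes by limma, against 0.183% of all features; 1 gene had an unadjusted p under 0.05 (Mknk2, difference 0.63 ± 0.30, adjusted p = 0.741). From 2 h to 4 h under inhibitor, 35 genes were called lower (14.8% of all features) and 1 higher (15.1%).

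The 47 genes are taken below by what their proteins do, in groups formed after the values had been seen. With inhibitor present, 46 of the 47 were called lower at 4 h of LPS than at 0 h, where 26.7% of all features were called lower. The median change was -2.18 (-2.15 with 5 genes that lay below the floor put at the floor) against -0.06 over all features. In 44 genes all 3 arrays of 4 h lay below all 3 of 0 h, a separation seen in 28.9% of all features. At 2 h of LPS under inhibitor 39 were called lower (10.5% of all features) and 1 higher (7.4%).

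**Figure D2:**
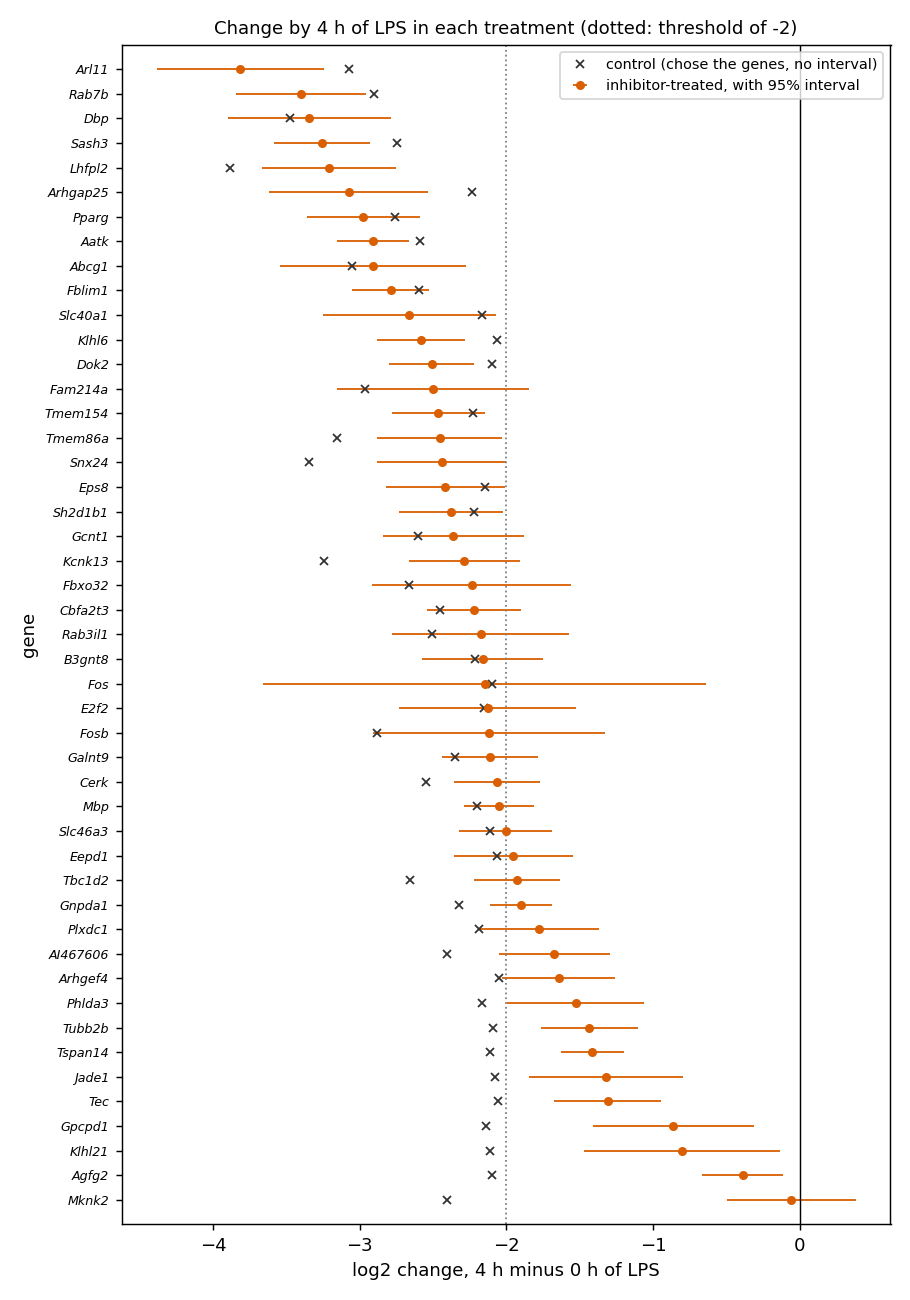
Difference between 4 h and 0 h of LPS, in log2 units, for each of the 47 genes in inhibitor-treated cells (orange points, with 95% intervals) and in control cells (crosses, which chose the genes and so carry no interval). The points run from -3.81 for Arl11 to -0.06 for Mknk2, and 4 genes at the bottom (Gpcpd1, Klhl21, Agfg2 and Mknk2) stand apart from the rest.

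7 members act in transcription or chromatin, and all 7 were called lower at 4 h under inhibitor. Pparg, the nuclear receptor that drives lipid handling genes in macrophages, stood at 9.82, 10.39 and 10.17 at 0 h and 7.12, 7.39 and 6.94 at 4 h with inhibitor. It fell by 2.98 ± 0.18 (adjusted p = 1.17e-10), beside a difference of -2.76 in control cells. The arrays of the 2 times did not overlap, and 31% of that change had been made by 2 h. Dbp stood at 9.63, 10.41 and 10.12 and 6.54, 7.06 and 6.53 and fell by 3.35 ± 0.27 (adjusted p = 4.62e-09). Cbfa2t3, a corepressor of the ETO family, was an early case: it fell by 1.88 ± 0.15 at 2 h (adjusted p = 1.89e-08) and fell by 2.22 ± 0.15 at 4 h. Its inhibitor arrays at 4 h stood at 6.53, 6.46 and 6.86, close to the floor, so the fall after 2 h may be understated. E2f2, a cell cycle transcription factor, had a mean of 8.28 ± 0.43 at 0 h and lay below the floor on all 3 inhibitor arrays at 4 h, at least 3.54-fold lower (adjusted p = 5.9e-06). Jade1, a scaffold of a histone acetyltransferase complex, fell by 1.32 ± 0.25 at 4 h. The AP-1 subunit genes Fos and Fosb are described further on, since they first rose.

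8 members act in the metabolism of lipids, sugars and glycans, and all 8 were called lower at 4 h under inhibitor. Abcg1, which exports cholesterol to high-density lipoprotein and is a target of the liver X receptors, stood at 10.54, 11.01 and 10.74 without LPS and at 7.46, 8.32 and 7.79 at 4 h. It fell by 2.91 ± 0.30 (adjusted p = 1.95e-07), against a difference of -3.06 in control cells, with no overlap between the times. Replicate 1 was the lowest of the 3 in every group of this gene. Its fall by 2 h under inhibitor (-1.02 ± 0.30, adjusted p = 0.0226) lost its call without inhibitor replicates 2 (0.095) or 3 (0.0565) of 0 h or replicate 1 of 2 h (0.142). In each replicate the 2 h array (9.18, 10.03 and 10.01) lay below the 0 h array. The limma fit blocked on replicate number kept the call, and over all settings tried adjusted p ran from 1.33e-06 to 0.142. Tmem86a fell by 2.46 ± 0.20 at 4 h (adjusted p = 8.27e-09). Cerk, which makes ceramide 1-phosphate, was the brightest member, with a control mean of 12.52 ± 0.18 at 0 h, and fell by 2.07 ± 0.14. Gnpda1, which turns glucosamine 6-phosphate into fructose 6-phosphate, fell by 1.90 ± 0.10. Of the glycosyltransferases, Gcnt1, which starts core 2 branches on O-glycans, fell by 2.36 ± 0.23 and B3gnt8, which extends polylactosamine chains, fell by 2.16 ± 0.20. Galnt9, which adds the first sugar of O-glycans, lay below the floor on all arrays at 4 h, at least 3.67-fold lower under inhibitor. Gpcpd1 is taken with the exceptions below.

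The 3 transporters and channels were also called lower at 4 h under inhibitor. Slc40a1, ferroportin, the iron exporter of macrophages, stood at 10.54, 11.35 and 10.88 at 0 h and at 8.02, 8.40 and 8.37 at 4 h with inhibitor. Without inhibitor it stood at 11.08, 11.53 and 11.14 and at 8.87, 9.28 and 9.11. With inhibitor it fell by 2.66 ± 0.28 (95% interval of the change -3.25 to -2.07, adjusted p = 2.4e-07). The treatments were not tested against each other at 4 h. Kcnk13 fell by 2.29 ± 0.18 and Slc46a3, a lysosomal transporter, fell by 2.01 ± 0.15. Kcnk13 stood at 6.92, 6.91 and 7.06 with inhibitor at 4 h against 6.21, 6.51 and 6.42 without, where 6.21 and 6.42 lay below the floor.

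8 members encode small GTPases, their regulators or other traffic proteins, and all 8 were called lower under inhibitor at 2 h and at 4 h. Arl11, an Arf-like GTPase, stood at 11.04, 11.34 and 11.71 at 0 h, 9.12, 10.23 and 9.85 at 2 h and 7.67, 7.51 and 7.48 at 4 h with inhibitor. It fell by 3.81 ± 0.27 (adjusted p = 1.06e-09), the largest 4 h change of the 47 under inhibitor. The control arrays at 4 h, not tested against the inhibitor arrays, stood at 8.96, 8.36 and 8.02. Rab7b, a late endosomal Rab that in macrophages promotes the degradation of Toll-like receptor 4, stood at 11.88, 11.91 and 12.05 and then at 8.62, 8.56 and 8.47 with inhibitor. It fell by 3.40 ± 0.21 (adjusted p = 1.39e-10), beside -2.90 in control cells. Arhgap25, which switches off Rac in phagocytes, fell early. It fell by 2.69 ± 0.26 at 2 h and fell by 3.07 ± 0.26 at 4 h under inhibitor. In control cells it stood at 7.72, 8.46 and 7.70 at 2 h and at 8.90, 8.50 and 8.48 at 4 h, so each replicate lay higher at 4 h than at 2 h, whereas under inhibitor replicates 2 and 3 lay lower at 4 h (7.58, 8.95 and 8.05 and then 8.10, 7.57 and 7.76). Tbc1d2, a Rab7 GTPase-activating protein, fell by 1.93 ± 0.14 and Rab3il1, a Rab exchange factor, fell by 2.18 ± 0.29. Snx24 fell by 2.44 ± 0.21, with 8.57, 8.60 and 8.57 at 4 h under inhibitor against 7.72, 7.93 and 7.89 without. Arhgef4, a GTPase exchange factor, fell by 1.64 ± 0.18.

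Of 8 kinases and signalling adaptors, 7 were called lower at 4 h under inhibitor, and Mknk2 was not. Sash3, an adaptor of haematopoietic cells, stood at 10.71, 10.93 and 10.95 and then at 7.70, 7.38 and 7.74 with inhibitor and fell by 3.26 ± 0.16 (adjusted p = 2.47e-12). At 4 h without inhibitor it stood at 8.44, 8.15 and 8.23, a comparison that was not tested. Aatk, a kinase first found in apoptotic myeloid cells, fell by 2.91 ± 0.12, Dok2, an inhibitory docking protein of myeloid cells, fell by 2.51 ± 0.14, and Eps8, an actin regulator, fell by 2.42 ± 0.19. Fblim1, which links filamin to sites of adhesion, fell by 2.79 ± 0.13. Sh2d1b1, an adaptor of SLAM family receptors, lay below the floor on all arrays of 4 h in both treatments, at least 3.88-fold lower under inhibitor (adjusted p = 1.06e-09). Tec, a non-receptor tyrosine kinase, was late: it stood at 9.47, 9.51 and 9.55 at 0 h, 9.28, 9.51 and 9.68 at 2 h and 8.43, 8.07 and 8.10 at 4 h with inhibitor. Nothing was called for it at 2 h (-0.02 ± 0.17, adjusted p = 0.958), and it fell by 1.31 ± 0.17 at 4 h (adjusted p = 4.41e-06).

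The 3 ubiquitin ligase adaptors are Fbxo32, the F-box protein atrogin-1 known from muscle wasting, and the BTB-kelch proteins Klhl6 and Klhl21. Fbxo32 stood at 10.07, 8.62 and 8.24 in control cells at 0 h and at 6.42, 7.18 and 6.79 at 2 h. Replicate 1 stood apart at 0 h, and 81.8% of the 4 h difference had been covered by 2 h. The control arrays at 4 h stood at 6.52, 6.43 and 5.98, close to or below the floor, so the 4 h difference may be understated. Its step from 1 h to 2 h was -2.36 ± 0.33 in control cells (adjusted p = 5.18e-05). Under inhibitor it lay below the floor on all 3 arrays at 4 h, at least 4.2-fold lower than at 0 h (adjusted p = 1.34e-05). Klhl6, known from B cells, stood at 9.65, 10.14 and 10.24 at 0 h and 7.56, 7.30 and 7.44 at 4 h under inhibitor and fell by 2.58 ± 0.14 (adjusted p = 2.37e-11).

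The 10 remaining members were all called lower at 4 h under inhibitor. Lhfpl2 stood at 12.55, 12.24 and 12.07 at 0 h and at 9.70, 9.02 and 8.51 at 4 h and fell by 3.21 ± 0.22 (adjusted p = 5.17e-10). Tmem154, a membrane protein, fell by 2.46 ± 0.15, Tspan14, a tetraspanin that helps the protease ADAM10 to mature, fell by 1.42 ± 0.10, and Plxdc1, a receptor first found on tumour vessels, fell by 1.78 ± 0.20. Fam214a stood at 9.41, 8.85 and 8.72 and then at 6.42, 6.43 and 6.63 and was called lower (adjusted p = 2.27e-06). Mbp, whose locus also makes non-myelin transcripts in blood cells, fell by 2.05 ± 0.11, and Phlda3, a p53 target that restrains Akt, fell by 1.53 ± 0.22. Eepd1, an endonuclease-like protein, lay below the floor on all arrays of 4 h in both treatments, at least 3.46-fold lower under inhibitor. Tubb2b, a beta-tubulin, fell by 1.44 ± 0.16. It belongs to a family of near-identical genes, and its other kept probes gave differences from -1.32 to 0.10 for the same comparison, so the gene behind its values is uncertain. AI467606, an expressed sequence of unknown function, was the earliest. It stood at 10.35, 10.18 and 9.99 at 0 h, 9.02, 9.09 and 8.80 after 1 h, 8.07, 7.82 and 7.76 after 2 h, then 8.46, 8.50 and 8.53 at 4 h under inhibitor, and was called higher from 2 h to 4 h (0.62 ± 0.18, adjusted p = 0.0138). That last call was lost without inhibitor replicate 2 (0.0501) or 3 (0.0589) of 2 h.

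At 1 h of LPS the changes of most genes were small and few were called. Under inhibitor the change was negative in 33 of the 47, with a median of -0.19 against -0.02 over all features, and in 15 genes all 3 arrays of 1 h lay below all 3 of 0 h (9.21% of all features). By the test 3 were called lower than at 0 h (1.48% of all features) and 2 higher (1.73%). AI467606 fell by 1.20 ± 0.18 (adjusted p = 0.000255), Cbfa2t3 fell by 0.56 ± 0.15 (adjusted p = 0.0481) and Tbc1d2 fell by 0.55 ± 0.14 (adjusted p = 0.0308). The call of Cbfa2t3 was lost in 16 of the 24 settings that left out 1 array (adjusted p from 0.0511 to 0.234). That of Tbc1d2 was lost without inhibitor replicates 2 (0.139) or 3 (0.183) of 0 h or replicates 1 (0.0686), 2 (0.0567) or 3 (0.175) of 1 h. In the fit blocked on replicate number, 7 genes were called lower at 1 h, the additional ones being Abcg1 (adjusted p = 0.0377), Arhgap25 (0.0356), Tspan14 (0.0126) and Arhgef4 (0.0208). The share of all features called in the blocked fit is not given here, so the rise from 3 to 7 cannot be read as particular to these genes.

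The 2 genes called higher at 1 h were Fos and Fosb, immediate early genes whose products pair with Jun proteins to form AP-1. Fos was singled out after its values had been seen. It varied widely before LPS, with 8.73, 10.69 and 12.16 in control replicates 1, 2 and 3 and 7.94, 10.47 and 11.33 in inhibitor-treated ones. At 1 h the control arrays stood at 12.26, 12.67 and 12.48 and the inhibitor-treated arrays at 13.75, 13.98 and 13.90. At 2 h they stood at 8.28, 9.78 and 8.92 and 7.78, 9.59 and 9.09, and at 4 h at 8.09, 8.62 and 8.58 and 7.33, 8.24 and 7.73. The 1 h arrays were close together and above all others of their treatment, while the 0 h arrays spanned more than 3 log2 units. The rise under inhibitor at 1 h was 3.96 ± 0.73 (adjusted p = 0.00213). Its change by 4 h under inhibitor, -2.15 ± 0.73 (adjusted p = 0.0204), was not called without inhibitor replicate 2 (0.0768) or 3 (0.136) of 0 h or replicate 1 of 4 h (0.0693). The place of Fos among the 47 rests on the bright 0 h control array of replicate 3 (12.16).

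Fosb stood at 9.14, 9.60 and 8.20 at 0 h, 11.60, 10.60 and 11.62 after 1 h, 9.97, 9.94 and 10.80 after 2 h, then 6.65, 6.93 and 7.01 at 4 h under inhibitor. Without inhibitor it stood at 8.55, 9.86 and 8.69, 10.27, 9.27 and 10.11, 8.25, 7.99 and 8.70 and 5.94, 6.14 and 6.37 at the same times, the last below the floor. All inhibitor arrays of 1 h and 2 h lay above all control arrays of the same time. Under inhibitor Fosb was called higher than at 0 h after 1 h (2.29 ± 0.38, adjusted p = 0.000714) and after 2 h (1.26 ± 0.38, adjusted p = 0.024). The 2 h call was lost without inhibitor replicate 3 of 0 h (0.165) or of 2 h (0.13). It then fell by 3.38 ± 0.38 from 2 h to 4 h (adjusted p = 2.01e-06) and ended -2.12 from its 0 h level (adjusted p = 0.00013).

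**Figure D3:**
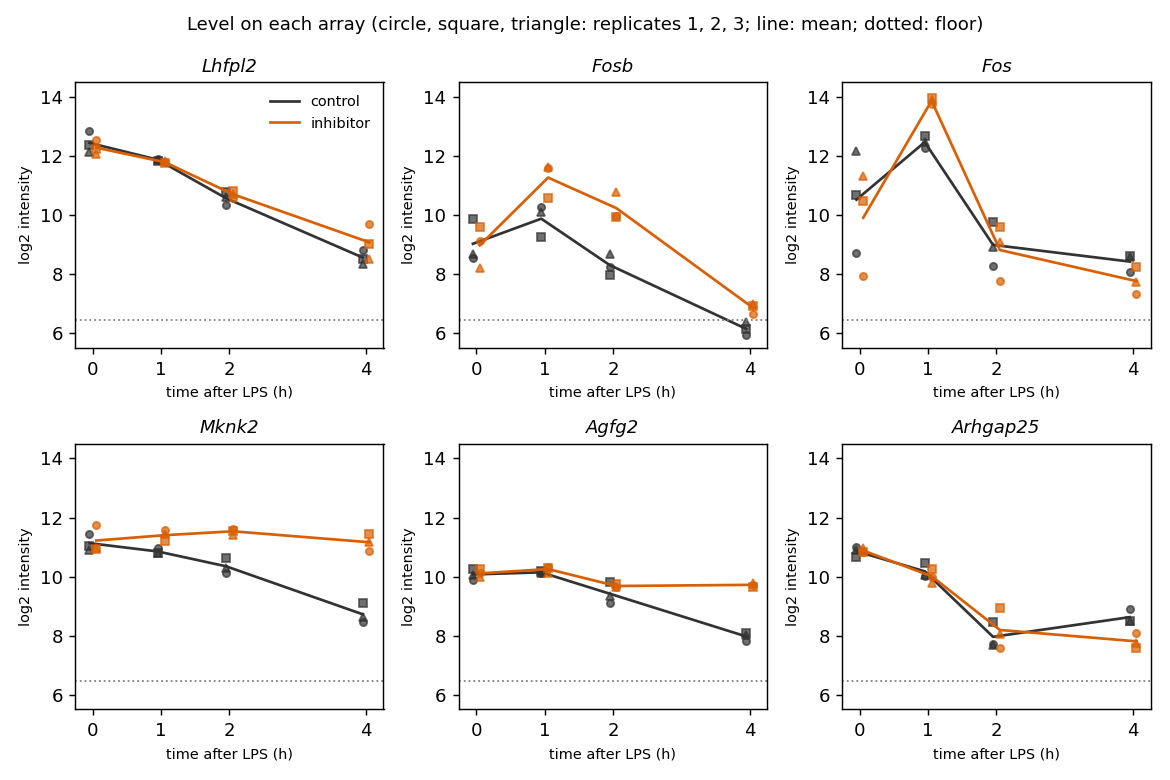
Level of selected members on each array (log2 units) against hours of LPS, with control cells in dark grey and inhibitor-treated cells in orange, marker shapes for replicates 1 to 3, lines through group means and the floor of 6.455 dotted. Mknk2 and Fosb separate by treatment at 2 h, while the means of Lhfpl2 follow nearly the same line in both treatments.

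The question the study put, what the inhibitor does, was asked of these genes at the times that had not chosen them. At 1 h 0 of the 47 differed between inhibitor and control by limma (0.524% of all features higher, 0.78% lower), and 2 lay higher and 2 lower at an unadjusted p under 0.05. In 7 genes the inhibitor arrays of 1 h all lay above the control arrays (5.24% of all features) and in 9 all below (6.49%). Fosb differed by 1.39 ± 0.38 (95% interval 0.60 to 2.18, adjusted p = 0.0915), with adjusted p = 0.0499 without control replicate 2 of 0 h and 0.0416 without inhibitor replicate 2 of 1 h. Fos differed by 1.40 ± 0.73 (interval -0.11 to 2.91, adjusted p = 0.953). Its inhibitor arrays at 1 h, given above, all lay above its control arrays, while the standard error pools the spread of all 8 groups, that of the 0 h arrays included. In the fit blocked on replicate number its adjusted p was 0.237. Fbxo32 differed by -1.10 ± 0.33 (adjusted p = 0.148), and its inhibitor arrays at 1 h (8.25, 8.21 and 7.73) lay below its control arrays (9.17, 9.50 and 8.81). In the blocked fit it was called lower (adjusted p = 0.0451), as it was without control replicate 1 of 0 h (0.00963). For the other 44 genes the difference at 1 h lay between -0.52 and 0.55.

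At 2 h Fosb, Mknk2, Klhl21 and Tubb2b were called higher and Klhl6 lower in inhibitor-treated than in control cells, 4 genes higher (2.72% of all features) and 1 lower (4.22%). The median difference over the 47 was 0.02, against 0.04 over all features. In 7 genes the inhibitor arrays all lay above the control arrays (12.4% of all features) and in 3 all below (9.74%). For the 42 genes without a call the difference ran from -0.39 to 0.45, and the widest 95% interval, that of Fos, was -1.69 to 1.34.

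**Figure D4:**
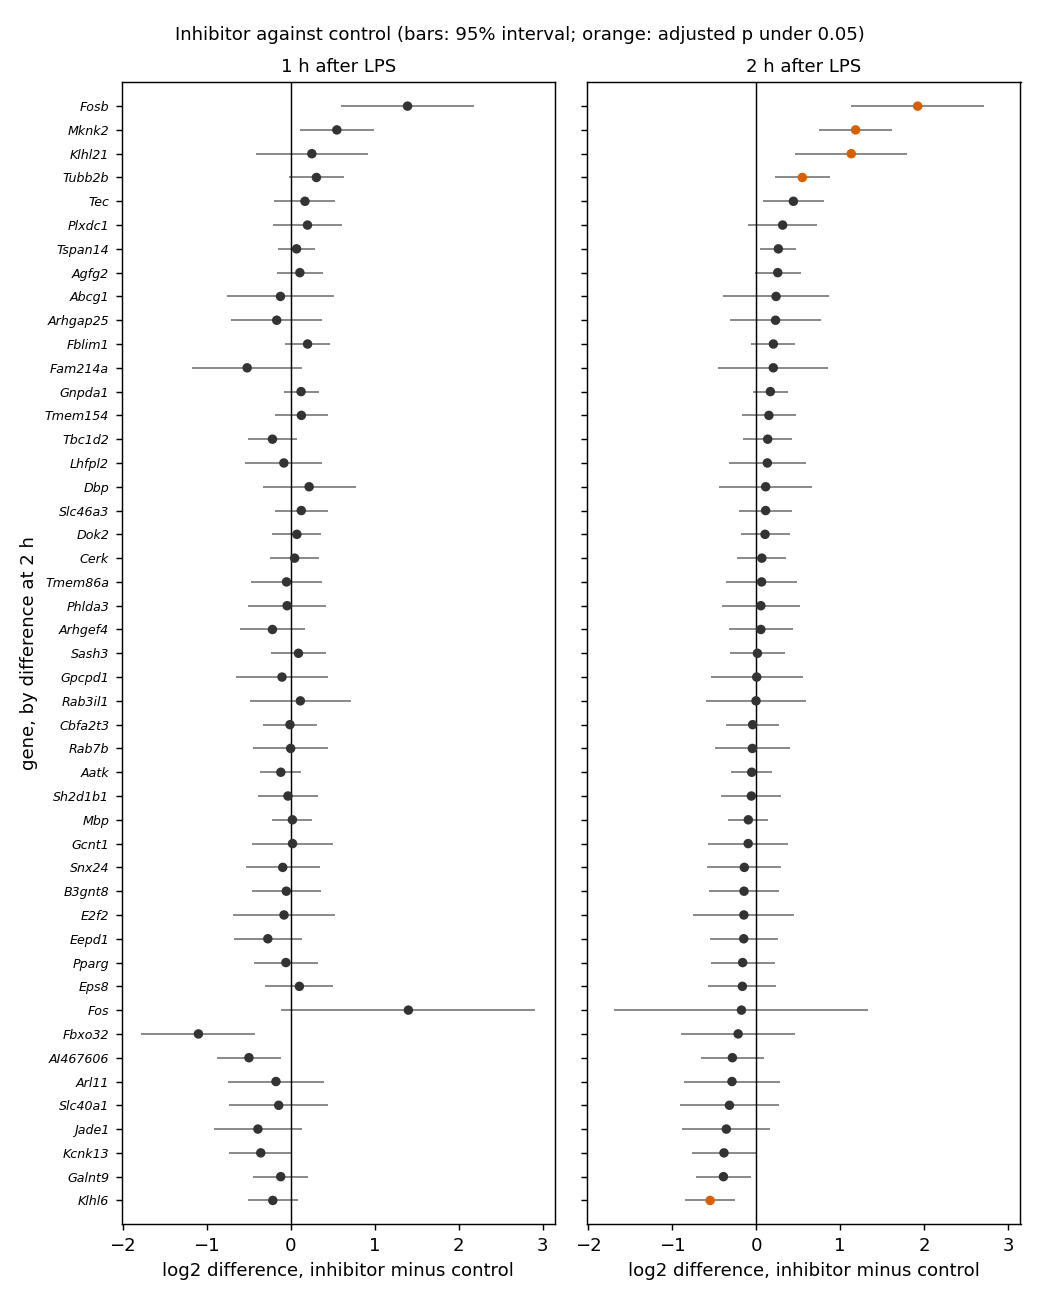
Difference between inhibitor-treated and control cells at 1 h (left) and 2 h (right) of LPS in log2 units, with 95% intervals, for the 47 genes in order of the 2 h difference. Orange points are called: Fosb, Mknk2, Klhl21 and Tubb2b higher and Klhl6 lower at 2 h, and none at 1 h.

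Fosb had the largest difference at 2 h, 1.93 ± 0.38 (3.8-fold, adjusted p = 0.00246), from the array values given above. Mknk2, a kinase that is activated by ERK and p38 and phosphorylates the translation factor eIF4E, stood at 10.13, 10.63 and 10.29 in control replicates and at 11.62, 11.56 and 11.43 in inhibitor-treated ones, without overlap. The difference was 1.19 ± 0.21 (2.27-fold, adjusted p = 0.000957). Both calls were kept in every setting tried, with adjusted p of at most 0.0223 for Fosb and 0.01 for Mknk2. Klhl21, an adaptor of cullin 3 ligases with roles in cell division and in NF-kB signalling, stood at 6.90, 7.29 and 7.30 without and 8.35, 8.14 and 8.40 with inhibitor. It was higher by 1.13 ± 0.32 (2.19-fold, adjusted p = 0.0333), a call lost when any 1 of the 6 arrays of 2 h was left out (adjusted p from 0.0573 to 0.138). Tubb2b stood at 8.77, 9.11 and 9.19 and 9.60, 9.51 and 9.61 and was higher by 0.55 ± 0.16 (adjusted p = 0.038). Its call was lost without control replicates 1 (0.203) or 2 (0.0561) or inhibitor replicates 1 (0.0965), 2 (0.0708) or 3 (0.114) of 2 h, and over the mean of its probes (difference 0.16, 0.336). Another bright Tubb2b probe, with a control mean of 9.34 at 0 h, differed by only 0.05 at 2 h, and the dim Tubb2b probes differed by -0.02 to 0.13. Klhl6 stood at 9.05, 9.22 and 9.33 without and at 8.40, 8.78 and 8.78 with inhibitor and was lower by a difference of -0.55 ± 0.14 (adjusted p = 0.0217). That call was lost without control replicates 2 (0.0595) or 3 (0.0989) or inhibitor replicate 1 (0.126) of 2 h. In the blocked fit, Tspan14 (0.27, adjusted p = 0.0147) and Plxdc1 (0.32, adjusted p = 0.0397) were called higher too.

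The promoters of Fosb, Mknk2, Klhl21 and Klhl6, 4 of the 5 genes called between treatments at 2 h, are shown, with that of Fos beside its relative Fosb. Each is the 250 bases before the annotated start, 5′ to 3′ on the gene's strand, from RefSeq on build GRCm38.p6. Capitals mark matches on either strand to any of 11 motifs, and overlapping matches run together. Fosb lies at chr7:19310046-19310295 (minus strand), Fos at chr12:85473640-85473889 (plus), Mknk2 at chr10:80676294-80676543 (minus), Klhl21 at chr4:152008641-152008890 (plus) and Klhl6 at chr16:19983050-19983299 (minus).
Fosb: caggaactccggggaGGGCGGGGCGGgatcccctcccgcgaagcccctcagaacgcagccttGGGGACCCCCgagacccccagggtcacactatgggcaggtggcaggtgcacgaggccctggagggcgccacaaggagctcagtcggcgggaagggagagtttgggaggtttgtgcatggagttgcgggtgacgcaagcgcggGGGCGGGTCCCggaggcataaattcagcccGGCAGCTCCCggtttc
Fos: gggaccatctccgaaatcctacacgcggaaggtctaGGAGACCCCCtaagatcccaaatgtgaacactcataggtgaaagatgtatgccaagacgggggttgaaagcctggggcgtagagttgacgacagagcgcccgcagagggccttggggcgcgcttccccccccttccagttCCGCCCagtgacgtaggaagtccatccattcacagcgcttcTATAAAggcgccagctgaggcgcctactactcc
Mknk2: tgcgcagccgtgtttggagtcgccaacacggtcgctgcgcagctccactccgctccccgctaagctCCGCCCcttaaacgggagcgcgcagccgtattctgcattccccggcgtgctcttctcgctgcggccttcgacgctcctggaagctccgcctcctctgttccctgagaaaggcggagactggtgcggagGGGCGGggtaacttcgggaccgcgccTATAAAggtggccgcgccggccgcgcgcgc
Klhl21: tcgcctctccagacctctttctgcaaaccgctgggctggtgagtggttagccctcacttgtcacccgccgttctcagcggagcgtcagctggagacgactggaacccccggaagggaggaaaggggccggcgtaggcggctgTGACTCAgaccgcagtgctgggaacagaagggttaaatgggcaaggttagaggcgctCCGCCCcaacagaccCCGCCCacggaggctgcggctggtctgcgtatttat
Klhl6: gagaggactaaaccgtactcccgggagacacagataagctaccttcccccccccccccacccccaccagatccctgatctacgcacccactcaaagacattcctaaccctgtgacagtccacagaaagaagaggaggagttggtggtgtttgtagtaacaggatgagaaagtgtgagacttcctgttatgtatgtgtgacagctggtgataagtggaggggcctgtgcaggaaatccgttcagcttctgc
Fos and Mknk2 hold a TATA box (TATAAA) that begins 33 and 30 bases before the start. Fosb, Fos, Mknk2 and Klhl21 hold GC boxes (GGGCGG), Fosb and Fos a run that matches a loose NF-kB pattern (GGG, any 5 bases, then CC), and Klhl21 an AP-1 site (TGANTCA) that begins 108 bases before the start. None of the 11 motifs is in the Klhl6 window shown.

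Promoters of 35 of the 47 genes were matched in the RefSeq table, and each motif was counted on both strands from 250 bases before to 50 after the start. The GC box was in 24 of 35 (68.6%), against 65.3% of the promoters of all 6245 matched tested genes. The NF-kB pattern was in 22 (62.9% against 67.2%) and the CCAAT box, CCAAT, in 11 (31.4% against 39.1%). TATAAA was in 4, namely Fos, Gcnt1, Klhl21 and Mknk2 (11.4% against 7.48%), and TGANTCA in 4 (11.4% against 5.3%). The E box CACGTG was in 4 (11.4% against 10.7%), and the PU.1 core GAGGAAGT in 3, Arhgap25, Cbfa2t3 and Fam214a (8.57% against 3.39%). The CACCC box CCACACCC, the cAMP response element TGACGTCA, the FOXO site GTAAACA and the MEF2 site (CTA, any 4 bases, then TAG) were in 0 of the 35 windows.

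At 4 h under inhibitor Mknk2 was the 1 gene of the 47 without a called change, and Agfg2, Klhl21 and Gpcpd1 had the smallest called falls. Mknk2 stood at 11.76, 10.94 and 10.97 at 0 h and at 10.87, 11.44 and 11.18 at 4 h with inhibitor, so that the arrays overlapped, and its change was -0.06 ± 0.21 (95% interval -0.50 to 0.38, adjusted p = 0.847). Without inhibitor it stood at 11.45, 11.05 and 10.89 and at 8.45, 9.09 and 8.63. Agfg2, an Arf GTPase-activating protein, stood at 10.12, 10.24 and 9.97 and at 9.71, 9.66 and 9.79 with inhibitor and at 9.90, 10.26 and 10.06 and 7.82, 8.09 and 8.01 without. It fell by 0.39 ± 0.13 with inhibitor (adjusted p = 0.0212, and 0.0904 without inhibitor replicate 2 of 0 h, 0.051 without replicate 1 and 0.0628 without replicate 2 of 4 h). Its step from 1 h to 2 h was called lower with and without inhibitor (-0.57 ± 0.13 and -0.72 ± 0.13), and from 2 h to 4 h under inhibitor its change was 0.04 ± 0.13 (95% interval -0.24 to 0.32, adjusted p = 0.858). Thus its arrays of 2 h (9.64, 9.76 and 9.64) and 4 h overlapped under inhibitor.

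Klhl21 stood at 9.87, 8.54 and 8.17 and at 8.41, 7.79 and 7.97 with inhibitor, with replicate 1 highest at both times, and at 9.72, 8.73 and 8.41 and 6.95, 6.72 and 6.85 without. Its change with inhibitor, -0.80 ± 0.32 (adjusted p = 0.0449), lost its call in 14 settings that left out 1 array, with adjusted p from 0.0502 to 0.367, the highest without inhibitor replicate 1 of 0 h (change -0.30). Gpcpd1, which splits glycerophosphocholine, stood at 10.98, 10.14 and 10.02 and at 9.40, 9.77 and 9.38 with inhibitor and at 11.24, 10.42 and 10.19 and 8.34, 8.58 and 8.52 without. It was late in both treatments, with nothing called under inhibitor by 2 h (0.15 ± 0.26, adjusted p = 0.766). It fell by 0.86 ± 0.26 by 4 h (adjusted p = 0.0109, and 0.0849 with a change of -0.56 without inhibitor replicate 1 of 0 h). Without all replicate 1 arrays the changes of Klhl21 and Gpcpd1 were -0.48 and -0.50.

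Side by side at 4 h, without a test because the control arrays of that time chose the genes, inhibitor minus control was 2.44 for Mknk2 (5.43-fold), 1.75 for Agfg2 (3.36-fold), 1.22 for Klhl21 and 1.04 for Gpcpd1. On the other side it was -0.89 for Arl11, -0.82 for Slc40a1, -0.82 for Arhgap25 and -0.73 for Klhl6. Over the 47 the value was positive in 30 and negative in 17, with a median of 0.18. The genes were chosen for low control values at 4 h, which biases these values upwards. Before LPS the same difference lay between -0.61 for Fos and 0.09 for Mknk2.

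Applied to the inhibitor-treated arrays of 0 h and 4 h, the same 2 conditions and exclusions were met by 45 genes, of which 32 were among the 47 (68.1% of the 47 and 71.1% of the 45). A change of -2 or less from 0 h to 4 h under inhibitor was found in 0.683% of all features. The 15 members that did not meet it with inhibitor were Tbc1d2, Mknk2, AI467606, Gnpda1, Plxdc1, Phlda3, Gpcpd1, Tspan14, Klhl21, Agfg2, Tubb2b, Jade1, Eepd1, Tec and Arhgef4. Some missed it narrowly, such as Eepd1 (-1.95) and Tbc1d2 (-1.93). The cut was set on the control arrays, which biases the number of members that meet it on other arrays downwards. The 13 genes that met it only with inhibitor were Ptpro, Cytip, Wipf1, Kcnk6, Tmem51, Egr2, Mcf2l, Evl, Tlr13, Ffar4, Oit3, Dlg3 and Sla. With the 5 genes below the floor put at the floor, 29 of the 47 had a change of -2 or less under inhibitor.

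Gene lists on nearby functions show how the members' relatives behaved at 4 h under inhibitor, where 26.7% of all features were called lower and 19.7% higher. Of 29 measured genes of carbohydrate, lipid and one-carbon metabolism, which include Abcg1 and Gpcpd1, 17 were called lower and 4 higher (median -0.46). Of 40 scavenger, lectin and clearance receptors 15 were lower and 1 higher (median -0.28), and of 28 genes of tissue-resident macrophages and microglia 8 were lower and 1 higher (median -0.28). Of 41 macrophage transcription factors and repressors, which include Pparg, 13 were lower and 11 higher (median 0.08). Of 26 ubiquitin ligases and BTB adaptors, which include Fbxo32 and Klhl6, 8 were lower and 8 higher. The remaining lists gave 9 lower and 4 higher of 20 regulators of Ras and Rap, 13 and 6 of 28 genes of phosphoinositide signalling, 13 and 6 of 37 adhesion receptors, 9 and 1 of 21 DNA repair genes, and 2 and 9 of 23 genes of the TGF-beta pathway. At 2 h, 4.22% of all features were called lower and 2.72% higher with inhibitor than in control cells. The list of ubiquitin ligases and BTB adaptors had 3 lower and 1 higher, and that of metabolism 1 lower and 0 higher. Regulators of Ras and Rap had 5 lower and 0 higher, phosphoinositide signalling 5 and 1, and transcription factors and repressors 4 and 0. The clearance receptor, adhesion receptor and TGF-beta lists each had 2 lower and 0 higher. The tissue-resident and DNA repair lists had 0 of either.

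Other probes of the same genes, where the array held any above the floor, also fell in control cells, but most fell by less than 4-fold. There were 19 such probes for 13 genes. Among the smaller differences were those of Cerk (-1.355), Gnpda1 (-1.19 and -1.38), Plxdc1 (-1.30), Rab3il1 (-1.39) and Mbp (-0.34). When the kept probe with the lowest mean stood for each gene, 36 genes met the conditions, all of them among the 47, and 11 were lost. In Phlda3 the second probe gave -2.13 in control cells from 0 h to 4 h and -1.26 under inhibitor, and in Klhl6 a second bright probe gave -1.92 and -2.40, with -0.38 for inhibitor minus control at 2 h. In Gcnt1 the second probe gave -2.21 and -2.12. For Pparg a dimmer probe gave -1.41 and -1.22, and for Fbxo32 the dimmer probes gave -1.79 and -1.16 in control cells. Dim probes near the floor, such as 3 of Tubb2b and 1 of Klhl6, gave values between -0.47 and 0.10 in the 2 treatments. No other kept probe was found for Mknk2, Agfg2, Fosb or Klhl21, so their values rest on 1 probe each.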

How the data were processed

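RNA of each sample was hybridised to 1 Illumina expression array of 1 colour. Purification with Qiagen RNeasy and labelling with the Ambion MessageAmp kit are recorded in the labels' protocols. The values used are the authors' deposited processed values for 25697 probes. The deposited values, which ran from 5.354 to 15.172, were taken as log2 intensities that the authors had normalized, a reading from the values alone because the scale is unstated. Sorted values differed between arrays by at most 0.004 at 99% of ranks, which is the mark of quantile normalization. limma is named in the submitters' processing notes without a version, and whether a background was subtracted is unknown. Differences of dim probes may be understated. A table of non-normalized signals was not used, because its 72 value columns are named by positions on the array chips and no label ties these to samples.

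Probes took the gene symbols of the platform annotation (23978 with a symbol, 1719 without), checked by Entrez identifier against RefSeq genes of GRCm38.p6. That check changed 0 symbols and left 11 identifiers unmatched. Kept probes exceeded the floor of 6.455 (99th percentile of 1303 olfactory and vomeronasal receptor probes) on all 3 arrays of at least 1 group, and the probe with the highest mean stood for its gene. That gave 8201 features from 10887 probes, 618 of them without a symbol. limma 3.58.1 in R 4.3.3 fitted 8 group means over 24 arrays (16 residual degrees of freedom, median residual SD 0.168). Tests were two-sided with Benjamini-Hochberg adjustment over all features of a contrast. A fold against arrays that all lay below the floor is a bound and is written "at least". The fit was tested on simulated data with independent noise on each array. These lack the pairing by replicate number described next, so they do not test the fit under that pairing. The replicate numbers pair the arrays: deviations from group means correlated by 0.106 to 0.847 within every same-numbered pair compared, and 24 of 24 arrays correlated best with an array of their own number, which comes from the values and not from the labels.

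The 47 genes and the gene lists were chosen with earlier results of these data known. Genes were named by a written rule: the 12 largest control differences, those nearest the thresholds, those called between treatments or lower at 1 h, the 5 largest and 5 smallest changes at 4 h under inhibitor, and members of a list. The other members were named after their values had been seen. 1 gene list is not reported here. Alternatives were the replicate block, housekeeping centring, cyclic loess, other probe rules, other thresholds, no filter, and leaving out arrays. Figures were drawn with matplotlib 3.10.9 in Python 3.11.15. Array data give no counts, so no counting interval applies.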

Additional observations from a re-analysis of the deposited data

How the results depend on the processing

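The planned background correction of the non-normalized signals and the slide block were not run, because those columns could not be tied to samples. Counts of genes called among the 47 under the other settings follow. The counts lower under inhibitor at 2 h (39; 32 to 40 when 1 array was left out) and 4 h of LPS (46; 44 to 46), from 1 h to 2 h in control cells (39; 30 to 42) and under inhibitor (35; 26 to 36) and from 2 h to 4 h under inhibitor (35; 35 to 37) stayed within 1.5 times the reported count in every setting, and a difference of the 1 h to 2 h step was called for 0 genes throughout. The count lower at 1 h under inhibitor (3) was 7 with the replicate block, 1 with housekeeping centring and 1 to 4 when 1 array was left out. The inhibitor effect at 1 h (0 higher, 0 lower) gave 0 to 1 higher and 0 to 2 lower when 1 array was left out, and 1 lower with the replicate block or without all replicate 1 arrays. The effect at 2 h (4 higher, 1 lower) gave 2 higher with housekeeping centring or with no filter, 0 lower with the mean of a gene's probes, 4 lower without all replicate 1 arrays, and 2 to 4 higher and 0 to 2 lower when 1 array was left out. The setting without all replicate 1 arrays was chosen after seeing the data. No share over all features is given for these alternative settings. For Klhl21 and Tubb2b at 2 h with no filter more features were tested; otherwise the cause was not tested. The block removed no call among the 47; beside the calls given with the results it added 2 lower at 2 h of LPS under inhibitor, 3 and 4 in the 1 h to 2 h step without and with inhibitor and 3 from 2 h to 4 h, and it changed no other call.

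The set of genes depends on the scaling. With 9 housekeeping genes as the centre, 29 genes met the conditions, all of them among the 47, since that scaling moved the median of all features at 4 h by 0.19 in control cells and 0.13 under inhibitor. Cyclic loess kept 32, and a fall threshold of -1.5 or -2.5 gave 118 or 19 genes. Leaving out 1 control array gave 45 to 56. Of 3385 values of 107 results on named genes, 3277 kept their call, 103 lost it, 5 gained it and 0 reversed. Most settings left out an array outside the groups compared, which cannot change the difference itself. Most of the results were entered because they had been called. The high share kept therefore follows in part from how it was counted and is no measure of robustness.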
